A study of Mus musculus with 12 samples.

Results

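GABA is the main inhibitory transmitter of the adult brain, and 26 genes of its receptors, synapses and transporters were followed here in mouse hippocampus. They were taken by gene symbol, for their known roles, from 31766 genes with counts in the dorsal or the ventral hippocampus, and no threshold on a measured value was applied. All 26 had enough counts to be tested in every comparison. The study removed Tet3, an enzyme that oxidises methylated cytosine in DNA, from adult neurons and measured RNA in the dorsal and the ventral hippocampus.

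Each of the 4 groups held 3 samples. The cKO (conditional knockout) mice carried floxed alleles of Tet3 (Tet3fl/fl) and Camk2a-CreERT2, a Cre recombinase that tamoxifen activates and that the Camk2a promoter expresses mainly in excitatory forebrain neurons. Controls were Tet3fl/fl mice without the Cre. Per the labels, tamoxifen was given into the abdomen from 6 weeks of age at 50 mg/kg, 2 times a day, in 2 courses of 5 days with 7 days between them, and the tissue was adult. The protocol is written for Tet3 ablation, and no vehicle group was analysed here. Samples are called by the number in their titles: dorsal controls 41, 49 and 71, dorsal cKO 40, 43 and 64, ventral controls 41, 49 and 50, and ventral cKO 40, 63 and 64. The labels do not say whether a number is an animal, nor that the samples of a group came from separate animals, so p-values measure the spread between these samples.

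GABA-A receptors are chloride channels built of several subunits, and their alpha, beta, gamma and delta subunits set where a receptor sits and how it responds. GABA-B receptors are G-protein-coupled and act more slowly. At inhibitory synapses a gephyrin scaffold holds receptors below the terminal, terminals load GABA with the transporter VGAT, and the chloride gradient kept by cation-chloride cotransporters decides the sign of the current. In the hippocampus, pyramidal and granule cells receive most of this inhibition from local interneurons.

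Depth ran from 5116935 to 15900323 counted reads per sample, and levels below are CPM, counts scaled to the total of their library, after TMM adjustment. Reads come from the 3′ end of each transcript, so levels are compared between samples and not between genes. Tet3, the targeted gene, did not separate the genotypes. In the dorsal hippocampus, Tet3 was at 29.9, 37.2 and 33.8 CPM in controls and 32.3, 41.8 and 40.4 CPM in cKO. In the ventral hippocampus, Tet3 was at 34.7, 30.3 and 23.6 CPM in controls and 35.0, 25.3 and 32.2 CPM in cKO. These 3′ reads test the labels only if the deleted stretch holds the 3′ end, which the labels do not say, and other cell types keep Tet3. Excitatory neuron markers were abundant in all samples, with Slc17a7, the vesicular glutamate transporter, between 1117 and 1810 CPM. The interneuron enzymes Gad1 and Gad2, which make GABA, were between 79.8 and 118 CPM in all samples. Choroid plexus markers summed to 3065 CPM in dorsal cKO 64, 4943 CPM in dorsal control 49 and 2626 CPM in ventral cKO 63, which stood apart from the other 2 samples of their groups. Ttr, their defining gene, spanned 40.8 to 3360 CPM over all samples.

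Region gave calls among the inhibitory synapse genes and genotype, with fewer samples per comparison, gave none. Over both genotypes, 9 of the 26 members (34.6%) passed the test between ventral and dorsal hippocampus, against 14.1% of all genes tested. To pass means a Benjamini-Hochberg adjusted p under 0.05 over all genes in edgeR's quasi-likelihood test. The members were chosen with earlier results of these data known, so the shares are not like for like. Their median standard error (SE) was 0.08, against 0.119 over all genes, so a difference of a given size passes more easily in a member. Higher in the ventral hippocampus were Gabra3, Gabra2, Gabrb1, Lhfpl4 and Slc6a11 (6.67% of all genes were called in that direction). Lower there were Plcl1, Slc12a2, Gabrd and Gabrb2 (7.43% of all genes). The median log2 fold change over the 26 members was 0.039, and over all genes it was 0, so the members did not shift one way. In 3 members, Plcl1, Gabra3 and Gabrb2, the 6 ventral samples did not overlap the 6 dorsal samples, which was true of 7.61% of all genes. Without the 3 samples of unlike choroid plexus level, a setting chosen after seeing the data, 6 of the 9 passed, and Lhfpl4, Slc6a11 and Gabrb2 did not (adjusted p = 0.0686, 0.185 and 0.243). Markers of the thalamus, which borders the hippocampus, also moved with region: they summed to 303 to 390 CPM in dorsal and 207 to 260 CPM in ventral samples, and 4 of 9 tested were lower in ventral hippocampus and none higher. All 10 oligodendrocyte markers were lower in ventral hippocampus as well (median log2 fold change -1.39). The part of either marker set in the 4 lower calls, or in any other regional call, was not tested. In bulk tissue, fewer cells of a type and less RNA per cell cannot be told apart.

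**Figure D1:**
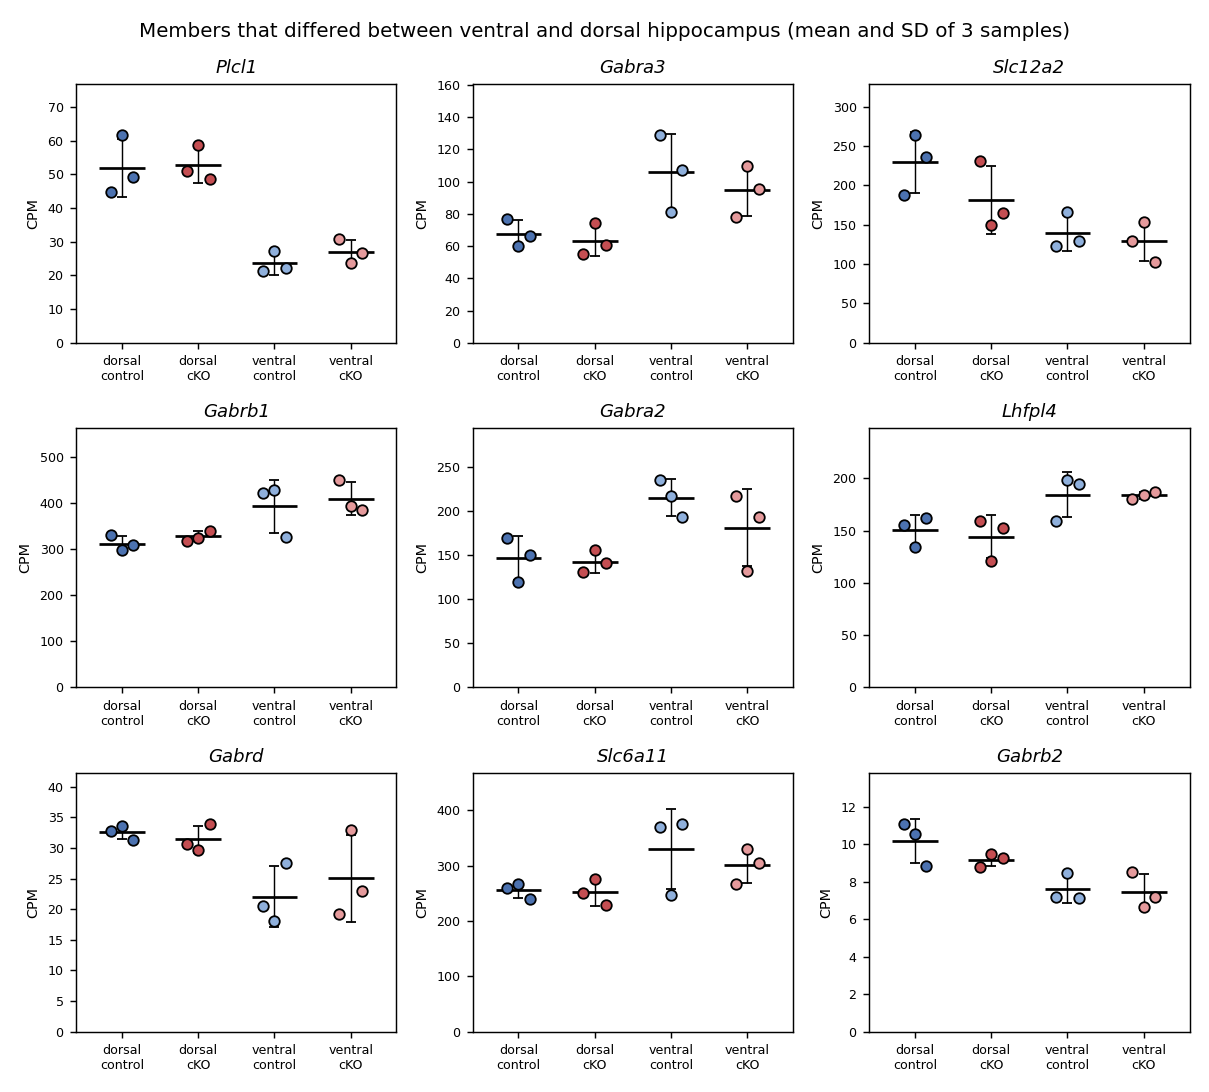
Levels in CPM (linear axes from 0) of the 9 members that passed the test between regions, one panel per gene, with 1 point per sample and the mean and SD of 3 samples for each region and genotype. Plcl1 splits the 6 dorsal from the 6 ventral samples by a wide gap, Gabra3 and Gabrb2 by a narrow one, and 1 ventral cKO sample of Gabrd, at 32.9 CPM, lies among the dorsal samples.

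Among the alpha subunits, which shape where a GABA-A receptor goes and its drug sensitivity, Gabra3 and Gabra2 were higher in the ventral hippocampus and Gabra4 and Gabra5 did not pass. Gabra3 was at 77.0, 60.3 and 66.0 CPM in dorsal controls and 55.4, 74.2 and 60.7 CPM in dorsal cKO. In the ventral hippocampus it was at 129, 81.2 and 108 CPM in controls and 78.1, 110 and 95.7 CPM in cKO. The lowest ventral sample, cKO 40, lay just above the highest dorsal one, control 41. Gabra3 was 1.53-fold higher in ventral hippocampus (log2 fold change 0.61 ± 0.11 SE, adjusted p = 0.00112).

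Gabra2, the alpha subunit known for its place at the axon initial segment of pyramidal cells, was at 170, 120 and 150 CPM in dorsal controls and 131, 156 and 141 CPM in dorsal cKO. Ventral levels were 236, 218 and 194 CPM in controls and 218, 133 and 194 CPM in cKO. All 3 ventral controls lay above the dorsal samples, and ventral cKO 63 lay among them. The log2 fold change was 0.45 ± 0.11 (1.37-fold, adjusted p = 0.00789).

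Gabra4 partners the delta subunit in receptors outside synapses, and Gabra5 is an alpha subunit of hippocampal pyramidal cells that acts mostly outside synapses. Gabra4 differed between regions by -0.07 on the log2 scale (95% interval -0.21 to 0.07, adjusted p = 0.577). For Gabra5 the difference was 0.06 (95% interval -0.08 to 0.20, adjusted p = 0.601). Both intervals end below the lower bound for Gabra3, 0.37.

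The beta subunits, needed to form the GABA binding site, went in opposite directions. Gabrb1 was at 331, 297 and 308 CPM in dorsal controls and 318, 325 and 340 CPM in dorsal cKO. In ventral samples it stood at 422, 428 and 327 CPM in controls and 450, 394 and 385 CPM in cKO. Only ventral control 50 fell within the dorsal range, and Gabrb1 was 1.25-fold higher in the ventral hippocampus (log2 0.33 ± 0.07, adjusted p = 0.00447).

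Gabrb2 had few reads, with the lowest count in a group between 48 and 80. Its levels were 11.1, 10.6 and 8.83 CPM in dorsal controls and 8.81, 9.47 and 9.26 CPM in dorsal cKO. Ventral controls had 7.21, 8.48 and 7.15 CPM and ventral cKO 8.53, 6.67 and 7.19 CPM. The groups met almost at their edges, and the log2 fold change of -0.36 ± 0.12 had an adjusted p of 0.0494. Of the 12 fits that left out 1 sample it passed only in 3, those without dorsal control 71, ventral control 49 or ventral cKO 40, and with the first sequencing run alone the value was 0.05.

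The gamma subunits, which help bring receptors to synapses, did not pass: Gabrg1 differed by 0.10 (95% interval -0.10 to 0.31) and Gabrg3 by 0.04 (95% interval -0.16 to 0.24). Gabrg1 is found in glia as well as neurons, and its levels ran from 46.2 to 67.8 CPM over the 12 samples. Gabrg3 ran from 13.2 to 18.3 CPM.

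Gabrd, the delta subunit of receptors that carry tonic inhibition and are abundant in dentate granule cells, was at 32.7, 33.5 and 31.3 CPM in dorsal controls and 30.6, 29.7 and 33.8 CPM in dorsal cKO. Ventral controls had 20.5, 18.1 and 27.6 CPM and ventral cKO 19.3, 32.9 and 22.9 CPM. The dorsal samples lay close together and 5 of the 6 ventral samples lay below all of them. Gabrd was lower in ventral hippocampus by a log2 fold change of -0.45 ± 0.12 (0.735-fold, adjusted p = 0.0194), and leaving out ventral cKO 40 or 64 raised the adjusted p to 0.0536 or 0.0509.

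Markers of dentate granule cells were mixed between regions. Their 10 genes summed to between 243 and 324 CPM in dorsal samples, 198 to 272 CPM in ventral controls and 204 to 337 CPM in ventral cKO. Of the 10, 1 was lower in ventral hippocampus by the test, Lct (-2.01 ± 0.22, adjusted p = 5.85e-06), and none was higher. Of all genes, 7.43% were called lower and 6.67% higher. The defining gene Prox1 had a log2 fold change of -0.37 ± 0.16 (adjusted p = 0.141), while 4 of the 10 had estimates above 0, C1ql2 the most with 0.43 ± 0.18 (adjusted p = 0.139). The part of granule cell content in the Gabrd difference was not tested.

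**Figure D2:**
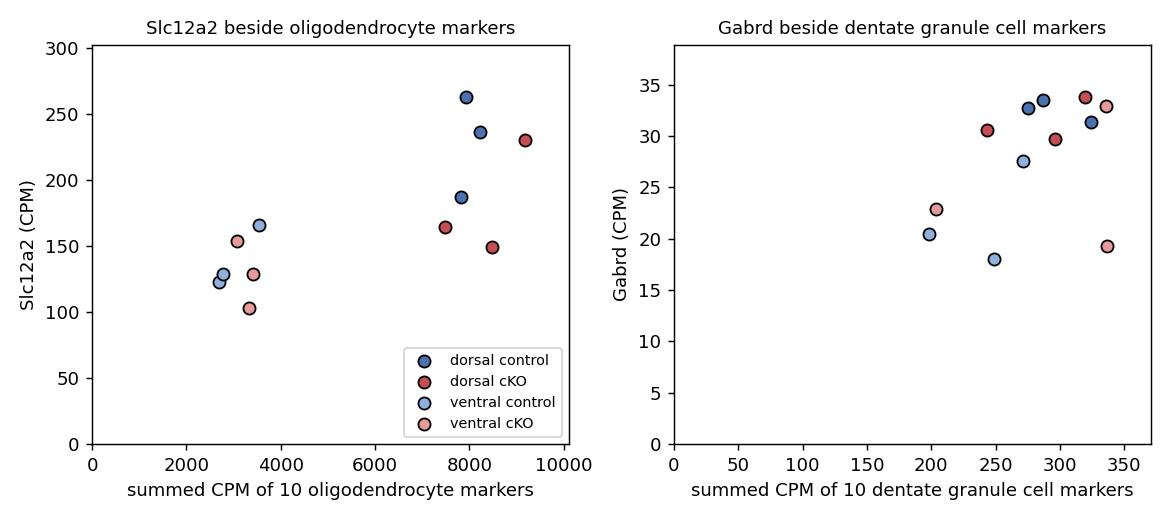
Left, Slc12a2 against the summed level of 10 oligodendrocyte markers, and right, Gabrd against the summed level of 10 dentate granule cell markers, in CPM, with 1 point per sample coloured by group. Oligodendrocyte markers split the regions completely (dorsal from 7474 CPM, ventral up to 3539 CPM), and granule cell markers do not.

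Neither GABA-B receptor subunit passed, and the intervals of their regional differences were narrow. Gabbr1, which binds GABA, differed by 0.02 (95% interval -0.11 to 0.15, adjusted p = 0.869). Gabbr2, which couples the receptor to G proteins, differed by 0.13 (95% interval -0.06 to 0.32, adjusted p = 0.399). Gabbr1 ran from 819 to 1041 CPM and Gabbr2 from 71.3 to 110 CPM over the samples.

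The postsynaptic members gave no call. Gphn, which encodes the gephyrin scaffold, differed by -0.14 ± 0.06 (adjusted p = 0.175). For Nlgn2, the adhesion protein of inhibitory synapses, the value was 0.16 ± 0.08 (adjusted p = 0.231). Iqsec3, an exchange factor that binds gephyrin, differed by 0.04 ± 0.06 (adjusted p = 0.751).

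Receptor partners were mixed. Lhfpl4, which links GABA-A receptors to neuroligin-2, was at 155, 134 and 162 CPM in dorsal controls and 160, 121 and 152 CPM in dorsal cKO. In the ventral hippocampus Lhfpl4 was at 160, 199 and 195 CPM in controls and 180, 184 and 187 CPM in cKO. Only ventral control 41 lay inside the dorsal range, and Lhfpl4 was 1.25-fold higher in ventral hippocampus (log2 0.32 ± 0.08, adjusted p = 0.00938). With the first or the second sequencing run alone it did not pass (adjusted p = 0.0835 and 0.151). Dorsal cKO 64 has no second run, so the fit of the second run lacked that sample. Clptm1, which limits the forward traffic of GABA-A receptors, differed by 0.11 ± 0.06 (adjusted p = 0.29). Shisa7, an auxiliary subunit, differed by -0.09 ± 0.09 (adjusted p = 0.604).

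Plcl1 had the largest regional difference of the 26. It encodes PRIP-1, an inactive relative of phospholipase C that binds GABARAP and phosphatases and takes part in GABA-A receptor traffic. In dorsal controls it was at 44.7, 61.6 and 49.3 CPM, and in dorsal cKO at 50.9, 58.8 and 48.7 CPM. In ventral controls it was at 21.3, 27.4 and 22.1 CPM, and in ventral cKO at 30.8, 23.8 and 26.7 CPM. Every dorsal sample was above every ventral one, with a wide gap. The log2 fold change of -1.06 ± 0.10 (0.481-fold, adjusted p = 9.64e-07) was larger in size than that of 97.8% of all genes tested.

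The other trafficking members did not pass. Gabarap, which links GABA-A receptors to the cytoskeleton, differed by 0.01 (95% interval -0.13 to 0.16). Trak1 and Trak2, adaptors that tie cargo and mitochondria to kinesin and of which Trak2 binds GABA-A receptor beta subunits, went in opposite directions, by 0.19 ± 0.07 (adjusted p = 0.0924) and -0.19 ± 0.07 (adjusted p = 0.074).

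The cation-chloride cotransporters parted. Slc12a2 encodes NKCC1, which loads chloride into cells, and Slc12a5 encodes KCC2, the neuronal exporter. Slc12a2 was at 188, 263 and 237 CPM in dorsal controls and 230, 150 and 165 CPM in dorsal cKO. Ventral levels were 123, 166 and 129 CPM in controls and 129, 154 and 103 CPM in cKO. The controls of the regions did not overlap, while dorsal cKO 43 and 64 lay within the ventral range. Slc12a2 was lower in ventral hippocampus by a log2 fold change of -0.61 ± 0.12 (0.655-fold, adjusted p = 0.00201). Slc12a5 differed by -0.01 ± 0.06 (95% interval -0.13 to 0.12, adjusted p = 0.958), and its 12 levels lay between 199 and 241 CPM.

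Slc12a2 is also made by oligodendrocyte lineage cells and by choroid plexus. All 10 oligodendrocyte markers were lower in ventral hippocampus (median log2 fold change -1.39), and their summed level was 7474 to 9186 CPM in dorsal and 2696 to 3539 CPM in ventral samples. The choroid plexus markers gave no call between regions. With a choroid plexus score as a covariate Slc12a2 had a log2 fold change of -0.67 (adjusted p = 0.000753), and the part of oligodendrocyte content in its difference was not tested.

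Of the genes that load, take up and break down GABA, Slc6a11 alone passed. Slc6a11 encodes GAT-3, the GABA transporter of astrocytes. It was at 260, 267 and 240 CPM in dorsal controls and 251, 276 and 228 CPM in dorsal cKO, and at 370, 248 and 374 CPM in ventral controls and 268, 329 and 305 CPM in ventral cKO. Ventral control 49 and ventral cKO 40 lay inside the dorsal range. The log2 fold change was 0.31 ± 0.09 (1.24-fold, adjusted p = 0.0298), and the call was lost, with adjusted p up to 0.0791, without any 1 of 7 samples: dorsal cKO 40 or 64, dorsal control 71, ventral control 41 or 50, and ventral cKO 63 or 64. Astrocyte markers summed to 5083 to 5890 CPM over all samples, with 1 of 10 lower in ventral hippocampus.

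Slc32a1 encodes VGAT, which fills vesicles of inhibitory terminals. It differed by 0.03 (95% interval -0.15 to 0.21, adjusted p = 0.849). Abat, the transaminase that breaks GABA down, differed by 0.09 (95% interval -0.07 to 0.24, adjusted p = 0.489). Interneuron markers summed to between 1410 and 1606 CPM over all samples, with 3 of 20 higher and 2 lower in ventral hippocampus. Gad1 differed by -0.06 ± 0.07 (adjusted p = 0.654) and Gad2 by 0.11 ± 0.06 (adjusted p = 0.254).

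Within controls, 4 members passed between regions (7.86% of all genes did): Plcl1 (-1.15 ± 0.14, adjusted p = 4.64e-05), Slc12a2 (-0.72 ± 0.17, 0.0127), Gabra3 (0.65 ± 0.16, 0.016) and Gabra2 (0.56 ± 0.15, 0.03). Within cKO, 2 members passed (6.16% of all genes did): Plcl1 (-0.96 ± 0.14, adjusted p = 0.000317) and Gabra3 (0.57 ± 0.16, 0.0433). Each genotype's estimate rests on 3 samples per region. The control count fell to 1 without dorsal control 49, dorsal control 71 or ventral control 41. In cKO the count fell to 1 without dorsal cKO 40 or 64, ventral cKO 64 or dorsal control 71, which enters through the shared estimate of spread. These contrasts share no samples, and 19 of the 26 members had the same sign in both, against 63.4% of all genes. All 9 members called over both genotypes were among the 19, a direction that their choice over both genotypes partly fixes. Groups did not overlap between regions for 9 members in controls (25.7% of all genes) and 10 in cKO (24.7%).

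**Figure D3:**
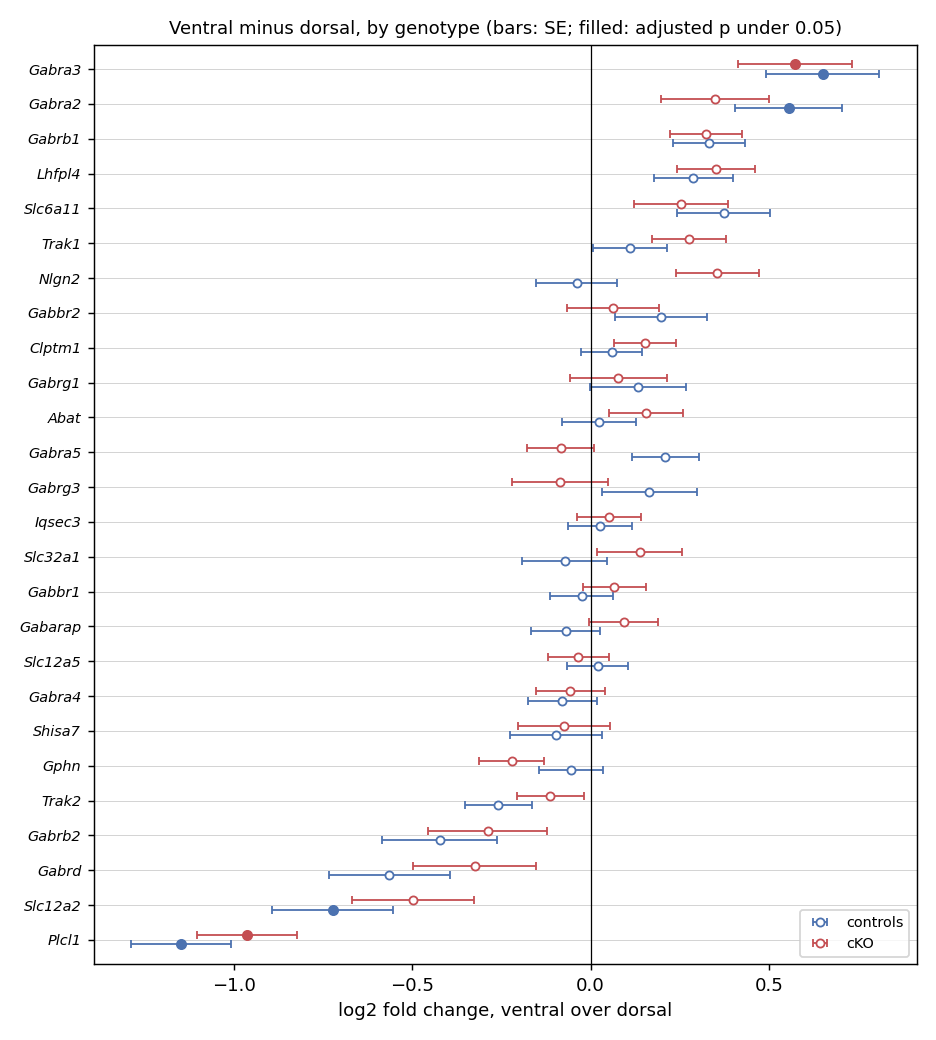
Log2 fold change, ventral over dorsal, of the 26 members in controls (blue) and cKO (red), with bars for the SE and filled points where the adjusted p was under 0.05, ordered by the estimate over both genotypes. Plcl1 at the bottom and Gabra3 at the top are filled in both genotypes, and Nlgn2 and Gabra5 show the widest separation of the genotypes relative to their bars.

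Between genotypes, no member passed in either region. In the dorsal hippocampus the count was 0 of 26 and 0 of all 15692 genes (0%), with 1 member at an unadjusted p under 0.05 against 4.9% of all genes. DESeq2 also called no member there, and 22 of all genes. In 10 members the estimate for cKO over control was above 0 and in 16 below, with a median of -0.03. The 95% intervals of the 26 reached from -0.65 (Slc12a2) to 0.56 (Gabrg3), so changes to between 0.637-fold and 1.48-fold were the widest left by these data.

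The dorsal member at an unadjusted p under 0.05 was Slc12a2, with the levels given above: dorsal cKO 40, at 230 CPM, lay among the controls and the other two below them (-0.33 ± 0.15, adjusted p = 0.968). The estimate was -0.55 without dorsal cKO 40 and -0.20 without dorsal cKO 43. Gabrg3 was at 13.5, 14.9 and 13.8 CPM in controls and 17.6, 16.4 and 17.0 CPM in cKO. Gabra4 was at 73.0, 70.1 and 66.7 CPM in controls and 77.5, 76.8 and 80.9 CPM in cKO. In both of these subunits all cKO samples lay above all controls (0.28 ± 0.13 and 0.16 ± 0.09, both adjusted p = 0.968).

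For Slc32a1 the dorsal controls were at 453, 432 and 460 CPM and the cKO at 396, 444 and 342 CPM (-0.18 ± 0.10, adjusted p = 0.968, and -0.10 without cKO 64). Gabarap had the third pair of groups that did not overlap, at 120, 118 and 114 CPM in controls and 107, 109 and 103 CPM in cKO. Such separation occurred in 3 members, and in 10.1% of all genes. None of the 20 interneuron markers passed between dorsal genotypes, and 5 had estimates above 0 (median over the 20, -0.08). Of the 20, 4 had an unadjusted p under 0.05, all with estimates below 0, against 4.9% of all genes in either direction. These were Pvalb with -0.35 ± 0.10 (adjusted p = 0.721) and Lhx6 with -0.575 ± 0.192 (adjusted p = 0.88). The others were Sst with -0.24 ± 0.09 (adjusted p = 0.941) and Npy with -0.28 ± 0.12 (adjusted p = 0.968). The summed interneuron markers overlapped, at 1411 to 1606 CPM in controls and 1410 to 1502 CPM in cKO.

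In the ventral hippocampus, 0 of 26 members and 0 of 15102 genes (0%) passed between genotypes, and no member had an unadjusted p under 0.05, against 7.23% of all genes. DESeq2 called no member either, and 9 of all genes. Gabra5 was at 215, 208 and 216 CPM in controls and 204, 170 and 189 CPM in cKO. It was the 1 member whose ventral groups did not overlap (12.7% of all genes), with a log2 fold change of -0.18 ± 0.09 (adjusted p = 0.71).

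Ventral Nlgn2 was at 38.8, 42.5 and 36.2 CPM in controls and 40.8, 48.7 and 46.1 CPM in cKO (0.20 ± 0.11, adjusted p = 0.757). Ventral Gabra4 was at 74.6, 65.3 and 57.8 CPM in controls and 80.0, 71.3 and 74.3 CPM in cKO (0.18 ± 0.11, adjusted p = 0.783). Ventral Gabra2, given above, had an estimate of -0.25 ± 0.16 (adjusted p = 0.783), with cKO 63 far below the rest. It was -0.07 without cKO 63 and -0.41 without cKO 40, and -0.72 with the choroid plexus score as a covariate. The intervals of the 26 members reached from -0.59 (Gabra2) to 0.62 (Gabrd). Choroid plexus markers were at 3289 to 4551 CPM in ventral controls and 174 to 2626 CPM in ventral cKO. The score, their mean log2 level, was 5.58, 5.64 and 5.09 in ventral controls and 2.29, 5.08 and 1.80 in ventral cKO. With the score as a covariate the estimate leans on cKO 63, the cKO sample near the controls. The part of choroid plexus content and that of genotype cannot be told apart here.

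**Figure D4:**
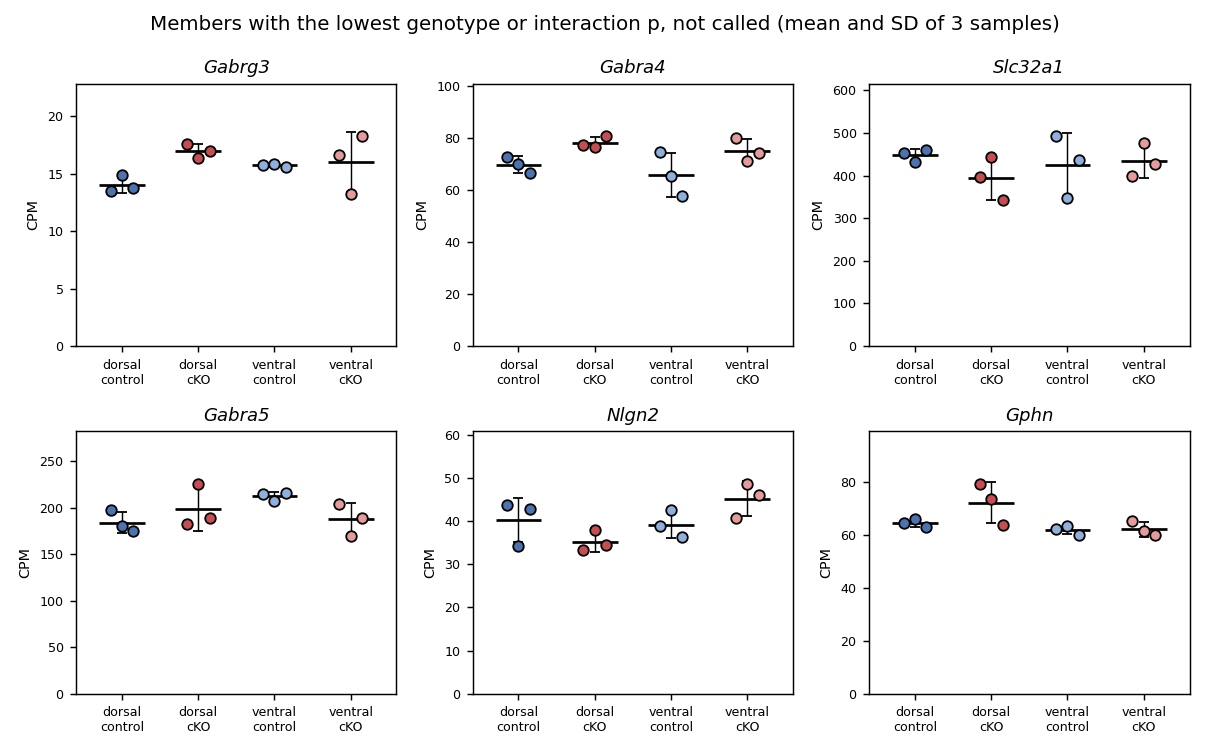
Levels in CPM (linear axes from 0) of 6 members with the lowest unadjusted p in a genotype or interaction comparison, with 1 point per sample and the mean and SD of 3 samples. Dorsal cKO samples of Gabrg3 and Gabra4 sit above the dorsal controls and ventral cKO samples of Gabra5 below the ventral controls, and none of these passed the test.

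The difference of the genotype effects between regions was tested directly, and 0 of 26 members and 0 of 16414 genes (0%) passed. DESeq2 called no member for it, and 34 of all genes. At an unadjusted p under 0.05 there were 2 members, against 7.96% of all genes. Nlgn2 had a ventral minus dorsal difference of genotype effects of 0.40 ± 0.16 (adjusted p = 0.582). Its dorsal levels were 43.7, 34.3 and 42.8 CPM in controls and 33.3, 38.0 and 34.4 CPM in cKO, so the estimate was -0.19 ± 0.11 in dorsal and above 0 in ventral hippocampus.

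Gabra5 had the opposite pattern, with a difference of genotype effects of -0.29 ± 0.13 (adjusted p = 0.613). Dorsal Gabra5 was at 197, 181 and 175 CPM in controls and 182, 226 and 189 CPM in cKO. Gabrg3 followed with -0.25 ± 0.19 (adjusted p = 0.79), and ventral Gabrg3 was at 15.8, 15.9 and 15.6 CPM in controls and 16.6, 13.2 and 18.3 CPM in cKO. For Gphn the difference was -0.17 ± 0.13 (adjusted p = 0.793). Dorsal Gphn was at 64.5, 65.9 and 62.9 CPM in controls and 79.2, 73.5 and 63.7 CPM in cKO. Ventral Gphn was at 62.3, 63.4 and 60.1 CPM in controls and 65.3, 61.3 and 59.8 CPM in cKO, where the groups overlapped.

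**Figure D5:**
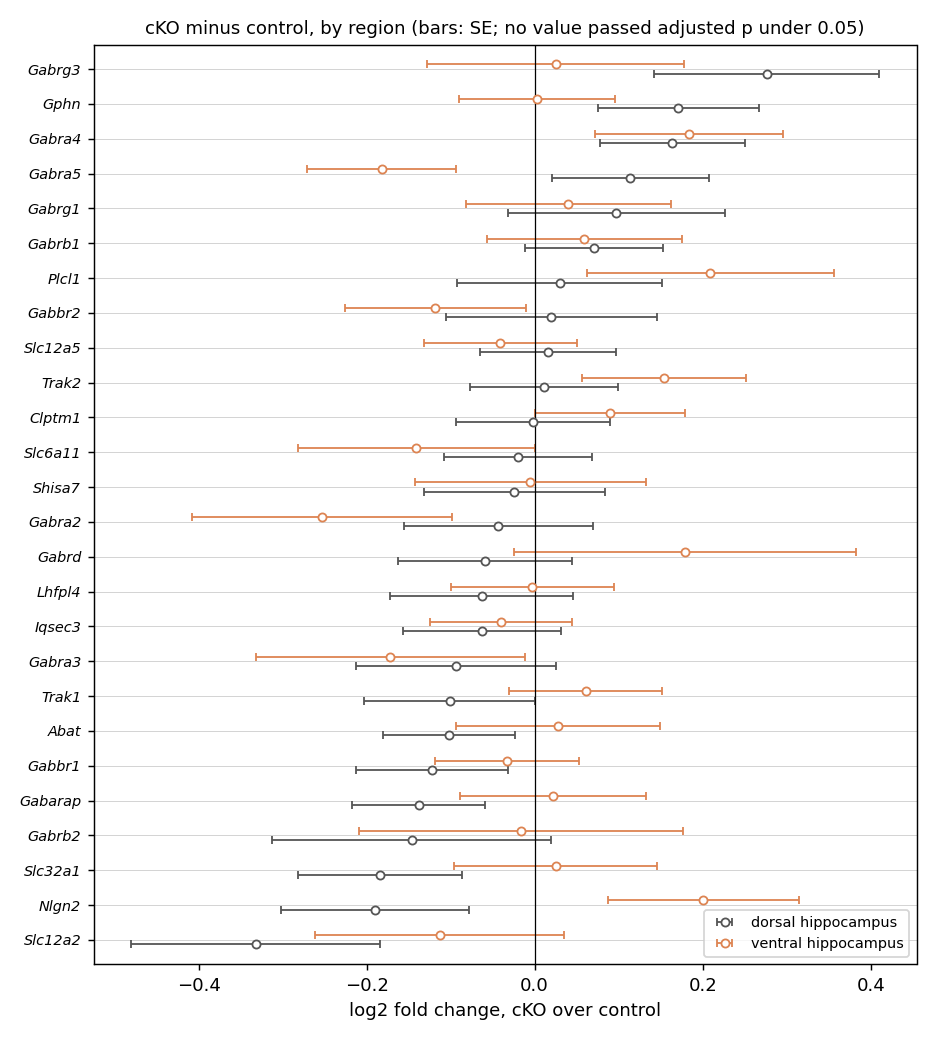
Log2 fold change, cKO over control, of the 26 members in dorsal (grey) and ventral (orange) hippocampus, with bars for the SE, ordered by the dorsal estimate. No value passed the test, and the estimates lie between -0.33 and 0.28, with Nlgn2 and Gabra5 on opposite sides of 0 in the 2 regions.

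The authors' deposited table of dorsal differences lists none of the 26 members at a false discovery rate (FDR) under 0.05, and its lowest member is Gphn with an FDR of 0.268. In the authors' deposited table of ventral differences no member is under 0.05 either, and the lowest is Gabra5 with an FDR of 0.0839 and a log2 fold change of -0.2. Those tables hold counts per run and likelihood ratios, while runs were summed per sample here and tested by quasi-likelihood. The authors' FDR and the adjusted p-values above are therefore not of like tests.

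Genes around the 26 in the same pathway were read over both genotypes from further lists. Among 22 tested genes of the inhibitory postsynapse and receptor traffic, 4 were higher and 1 was lower in ventral hippocampus, beside 6.67% and 7.43% of all genes. Hap1, a huntingtin partner that links GABA-A receptor vesicles to kinesin, had a log2 fold change of 1.54 ± 0.06 (adjusted p = 3e-11). Nsf, the ATPase of membrane fusion, had one of 0.34 ± 0.06 (adjusted p = 0.000307).

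In the chloride and potassium transport list, 2 of 10 genes were lower in ventral hippocampus and none was higher (14.1% of all genes were called in either direction). Both encode kinases of the cascade that acts on NKCC1 and KCC2. Wnk1 was lower by -0.46 ± 0.05 (adjusted p = 6.39e-06) and Oxsr1 by -0.87 ± 0.13 (adjusted p = 0.000165). Other listed kinases of this cascade did not pass, with estimates just above 0: Wnk2 (0.07 ± 0.07), Wnk3 (0.03 ± 0.10) and Stk39 (0.05 ± 0.08). The 2 calls thus do not describe the cascade as a whole. For GABA synthesis and uptake, 1 of 7 genes was lower and none was higher, where 14.1% of all genes were called in either direction. It was Glul, the glutamine synthetase of glia (-0.32 ± 0.05, adjusted p = 0.000584). Of 6 kinase and phosphatase partners, 1 was higher and 2 lower, beside 6.67% and 7.43% of all genes. Akap5 was the higher one (0.325 ± 0.094, adjusted p = 0.0264). The lower ones were Ppp3ca, the calcineurin catalytic subunit (-0.41 ± 0.08, adjusted p = 0.00135), and Prkca (-0.265 ± 0.084, adjusted p = 0.045). None of 3 GABA-B auxiliary subunits passed. No gene of these lists passed between genotypes in either region or in the interaction, where the background was 0% as well.

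Several members neighbour each other on the GRCm38 genome (GENCODE M21 annotation). On chromosome 5, Gabrg1 (70751047 to 70842617), Gabra2 (70957597 to 71095849), Gabra4 (71569749 to 71658308) and Gabrb1 (71658113 to 72149037) lie within 1398 kb, the first 3 on the minus strand and Gabrb1 on the plus strand. Gabra4 and Gabrb1 stand head to head, and their gene models overlap by 196 bases at the 5′ ends. Of these neighbours, Gabra2 and Gabrb1 were higher in ventral hippocampus and Gabra4 and Gabrg1 did not pass, so genes that share a start region differed in call. Gabra5 and Gabrg3 lie 20483 bases apart on chromosome 7. For no member did another gene's exon lie in the last 1000 bases, where 3′ reads fall.

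Start regions were read from RefSeq windows of 300 bases on GRCm38.p6, 250 before and 50 after a start site, which matched 23 of the 26 members and not Gabrd, Slc12a2 and Abat. Where a gene had several windows, the one nearest its GENCODE start was used. Cytosines before guanines (CpG) are the usual sites of the methylation that Tet3 oxidises, and no methylation was measured here. Members held a median of 21 CpG per window, against 7 over all 32851 windows. Those windows cover 27025 genes, some with several windows, and include genes not tested here. This comparison and the motif shares below thus set unlike sets side by side and mark no trait of the members. Gabbr2 held 46, Gphn 42 and Trak1 41, and at the other end Gabrg1 held 3 and Gabra3 none, as in 5.4% of all windows.

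Sequences upstream of Plcl1, Gabra3 and Gabra2, which had the largest regional log2 fold changes of members with a window, are shown to set the dense start of Plcl1 (30 CpG in the whole window) beside the start of Gabra3, which holds none, and that of Gabra2 (25 in the window). They are the parts before the gene model: chr1:55405696-55405920 on the plus strand for Plcl1, chrX:72656849-72657057 on the minus strand for Gabra3 and chr5:71095850-71096099 on the minus strand for Gabra2. Capitals mark CpG, of which 19, 0 and 18 fall in the printed stretches.
Plcl1: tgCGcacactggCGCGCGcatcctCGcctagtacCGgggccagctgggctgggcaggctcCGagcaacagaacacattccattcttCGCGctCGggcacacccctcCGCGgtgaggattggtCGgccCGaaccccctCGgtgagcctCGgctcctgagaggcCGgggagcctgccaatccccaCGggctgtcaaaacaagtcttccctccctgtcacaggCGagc
Gabra3: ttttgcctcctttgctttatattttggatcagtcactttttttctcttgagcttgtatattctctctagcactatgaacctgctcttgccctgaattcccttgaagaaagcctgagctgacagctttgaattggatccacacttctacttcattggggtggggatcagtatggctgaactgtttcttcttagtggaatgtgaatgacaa
Gabra2: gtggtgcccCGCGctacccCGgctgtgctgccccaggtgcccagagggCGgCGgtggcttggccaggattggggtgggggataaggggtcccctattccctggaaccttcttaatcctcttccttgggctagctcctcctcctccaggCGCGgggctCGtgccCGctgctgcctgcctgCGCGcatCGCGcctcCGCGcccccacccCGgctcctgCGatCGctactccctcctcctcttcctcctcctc
Gabra3 and Gabra2 were both higher in ventral hippocampus, with no CpG in the window of Gabra3 and 25 in that of Gabra2, and Plcl1, with 30, was lower. The GC box GGGCGG, searched on both strands, was in 17 of the 23 windows and in 35.66% of all windows. The TATA box TATAAA was in 2, Gabra3 and Gabrb2, and in 13.62% of all windows. The cyclic AMP response element TGACGTCA was in none of the 23 (1.79% of all windows) and the E-box CACGTG in none (7.15%). No motif contains another, and a match is a run of letters in this window only.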

How the data were processed

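RNA of 12 hippocampal samples, 500 ng each, was made into QuantSeq 3′ libraries, per the labels' protocols. The submitters' processing notes name cutadapt, HISAT2, featureCounts and edgeR with the build GRCm38, and give no versions. The authors deposited raw counts per gene and run in a dorsal and a ventral table, and counts of the 35 runs were summed here per sample (a gene absent from 1 table was given 0 there). The deposited tables also hold scaled signal columns, not used here, and the authors' own log2 fold changes, test scores (likelihood ratios), p-values and FDR, which are quoted only as the authors'.

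Genes were filtered with filterByExpr, scaled by TMM and tested with edgeR 4.0.16 (quasi-likelihood, R 4.3.3), with p-values adjusted over all genes (Benjamini-Hochberg, threshold 0.05). Genotype was tested within each region on 6 samples, and region and the interaction on all 12. Errors are SE of log2 fold changes, and intervals are 95%. The regional contrast compares tables counted in separate files, and their processing cannot be told apart from region. No 2 samples of a group agreed within counting noise (chi-square per gene 4.03 or more). Alternatives were DESeq2 1.42.0, limma-voom (limma 3.58.1), other scalings and filters, single runs, a choroid plexus covariate, a replicate block and left-out samples.

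The 26 members, the further lists and the markers were chosen with earlier results of these data known. Every member is named; values per sample are given for members that passed between regions and for the 4 lowest p-values of each genotype comparison and the interaction. Of the other lists, some genes that passed are named, with a few that did not. No set test was run. A few genes of the further lists are not reported here.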

Additional observations from a re-analysis of the deposited data

How the results depend on the processing

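Between genotypes and in the interaction, no member passed under any alternative run. Over both genotypes the number of members that passed between regions stayed between 6 and 9 of 26, leaving out 1 sample included. Plcl1, Gabra3, Slc12a2, Gabrb1 and Gabra2 passed in all 25 alternatives, Gabrd in 23, Lhfpl4 in 21, Slc6a11 in 14 and Gabrb2 in 8. With the first sequencing run alone, Gabrb2 turned to 0.05 and the interaction of Gabrg3 to 0.08, neither called, and the cause was not tested.

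Within controls, the 4 calls became 7 with no filter, 2 without the 3 samples of unlike choroid plexus level, and 1 to 6 when 1 sample was left out. Within cKO, the 2 calls became 5 with DESeq2, 1 with limma-voom, 1 with library size only, 6 with no filter and 1 with run 1 or run 2 only. Dorsal cKO 64 has no second run, so every fit of run 2 only lacked that sample where dorsal samples entered. The cKO calls ranged from 1 to 3 when 1 sample was left out.

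Numbers 40, 41, 49 and 64 occur in both regions, and deviations of same-numbered samples correlated at 0.035, 0.103, 0.077 and -0.108, which does not establish a pairing, and the labels do not say whether a number is an animal. With the number as a fixed replicate block, 6 members passed over both genotypes and 5 within cKO. Those lost over both were Lhfpl4, Slc6a11 and Gabrb2 (adjusted p = 0.095, 0.217 and 0.255), and with duplicateCorrelation (0.058) 9 passed over both. Within a region the genotypes share no number, so no paired fit was made there. With 3 samples per group the median SE of a member's genotype effect was 0.1 in dorsal and 0.115 in ventral hippocampus.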

Other observations

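Interneuron markers, as distinct from the genes of the GABA synapse, were read between regions too, where 5 of 20 passed beside 14.1% of all genes. Nos1, which marks nitric oxide producing interneurons, was higher in ventral hippocampus by a log2 fold change of 1.21 ± 0.10 (adjusted p = 1.56e-07). Cnr1, the cannabinoid receptor of cholecystokinin interneuron terminals, was higher by 0.61 ± 0.10 (adjusted p = 3e-04), and Reln, the secreted protein reelin, by 0.47 ± 0.11 (adjusted p = 0.0048). Pvalb, the calcium buffer of fast-spiking interneurons, was lower there (-0.46 ± 0.09, adjusted p = 0.00219), as was Lamp5, a marker of neurogliaform cells (-0.67 ± 0.15, adjusted p = 0.00558). The other 15 of the 20 markers did not pass. Cells outside the interneuron class express several of these 5 genes, and their part in the values was not tested.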
